A study of Mus musculus with 35 samples.

Results

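Type 2 chemokines and eosinophil genes were followed through a mouse study of closed head injury. The set holds 9 of the 21203 genes of the deposited table, found by their gene names. It comprises the chemokines Ccl11, Ccl24, Ccl17 and Ccl22, their receptors Ccr3 and Ccr4, and the eosinophil genes Siglecf, Epx and Ear2. RNA-seq was done on brain tissue of 34 male C57BL/6NCrl mice, 1 library per mouse, that were 8 to 9 weeks old at the start. The study asked how MSCs that express IL-4 act on the injured brain. The tissue lay around the injection site of the left hemisphere and is called left cortex in the labels, which give its width as 2 mm where the methods of the study give 3 mm.

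Sham mice had neither impact nor injection, and their 5 mice (2 of week 1 and 3 of week 3) formed a single group. All other mice had closed head injury and an injection into the left hippocampus on day 5. PBS mice received the vehicle. MSC mice received unmodified mesenchymal stromal cells of C57BL/6N mice from a single vendor. IL-4 MSC mice received the same kind of cells after transfection with synthetic IL-4 mRNA, which is expressed only for a time. Tissue was taken 1 week post injury (wpi), 2 days after treatment, or 3 wpi, 16 days after treatment. There were 5 mice in a group, but 4 in the PBS group of week 3, from which 1 mouse with anomalous counts had been excluded by the authors. A number in the titles was common to all mice of a treated group and differed between groups. What it marks cannot be told apart from the group.

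Type 2 immunity is the arm of the immune response led by the cytokines IL-4, IL-5 and IL-13. IL-4 and IL-13 signal through Il4ra and Stat6 and induce chemokines in macrophages, fibroblasts and other tissue cells. Ccl11 and Ccl24 are eotaxins, which draw eosinophils through Ccr3. Ccl17 and Ccl22, made mainly by dendritic cells and macrophages, draw Th2 and regulatory T cells through Ccr4. Eosinophils are rare in healthy brain, and their granules hold toxic proteins such as Epx and the Ear ribonucleases.

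The libraries held 29838423 to 41554322 estimated counts. Counts are scaled here to CPM, the count as a share of its library's total, scaled to the same sum in every library. A count of 3, taken as the detection level, equals 0.0722 to 0.101 CPM and covers counting error only. Groups were compared with edgeR over 17131 tested genes, and a gene is called where its Benjamini-Hochberg adjusted p was under 0.05. Each difference below is a log2 fold change (log2FC) of the fitted levels with its standard error (SE). Mice are given in the order of their replicate numbers.

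Some members share sequence with other genes, and this bears on how reads were assigned. Of the 689 31-base words in the Ear2 transcript, 381 (55.3%) also occur in other genes, mainly Ear1 and Ear10. For the other members this share was 0% to 0.913%. Coding bases 34 to 93 are shown for Ear2 and its closest relative Ear10, with the single differing base in capitals. The same is done below them for coding bases 121 to 180 of Ccl11 and Ccl7, another Ccr3 ligand, which differ at 20 of 60 bases. The sequences run 5′ to 3′ and are from GENCODE vM21 transcripts.
Ear2: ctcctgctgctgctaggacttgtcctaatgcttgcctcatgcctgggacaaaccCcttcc
Ear10: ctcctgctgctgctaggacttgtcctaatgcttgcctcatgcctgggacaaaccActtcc
Ccl11: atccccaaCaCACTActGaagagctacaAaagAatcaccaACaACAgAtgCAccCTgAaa
Ccl7: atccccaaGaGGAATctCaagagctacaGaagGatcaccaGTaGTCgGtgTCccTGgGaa
Over the whole coding sequence Ear2 was 97.03% identical to Ear10 and 95.12% to Ear1. Ccl11 was 66.33% identical to Ccl7. Values for Ear2 are therefore uncertain between these near copies, whereas reads of Ccl11 and Ccl7 are told apart more readily.

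A promoter, 250 bases before to 50 after the start site, was given by RefSeq (GRCm38.p6) for 7 of the 9 members, Ccl11 and Ccl24 being the others. It was searched on both strands for TTCNNNGAA, the general STAT pattern, for the same pattern with 1 more N between its arms, which Stat6 is known to prefer, and for AGATAA, which factors of the Gata family prefer. The STAT pattern occurs in 8.3% of 32851 mouse promoters, the Stat6 pattern in 6.95% and AGATAA in 11.2%. The Ccl17 promoter held all 3, with Stat6 letters at -154, AGATAA on the reverse strand at -109 and the STAT pattern at -99. The Ccr3 promoter held AGATAA at -30, and the Epx promoter held a Stat6 pattern at -5 that crosses the start site. None was found in the windows of Ccl22, Ccr4, Siglecf and Ear2. The stretches with the matches in capitals are shown for Ccl17, which was not called in any comparison, and for Ccr3, which was. They are chr8:94810244-94810363 and chr9:124021851-124021970, both on the plus strand.
Ccl17: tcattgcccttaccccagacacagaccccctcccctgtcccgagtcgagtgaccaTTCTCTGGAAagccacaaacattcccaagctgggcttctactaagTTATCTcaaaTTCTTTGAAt
Ccr3: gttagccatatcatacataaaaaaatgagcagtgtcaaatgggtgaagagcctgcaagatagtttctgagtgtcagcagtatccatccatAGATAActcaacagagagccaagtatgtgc
A match is a description of letters and not evidence of binding.

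Several members were at or near the detection level outside IL-4 MSC mice of week 1. Ccl11 had 3 counts or fewer in 20 of 34 libraries, Ccr3 in 25, Ear2 in 26 and Ccl22 in 1. Ccl24, Ccl17, Ccr4, Siglecf and Epx were above 3 counts in all 34. A floor of 10 counts is a wider measure of low values. At 10 counts or fewer, the median of the group covered 5 to 7 of the 9 members in all other groups, but 0 in IL-4 MSCs at 1 wpi. All 9 passed the filter on low counts. At 1 wpi all 5 IL-4 MSC mice were over the CPM of the filter for Ccr3, Ear2 and Ccl11, and of the other 29 mice 0, 0 and 1 were. For these genes, being tested and being higher there are not separate facts.

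**Figure D1:**
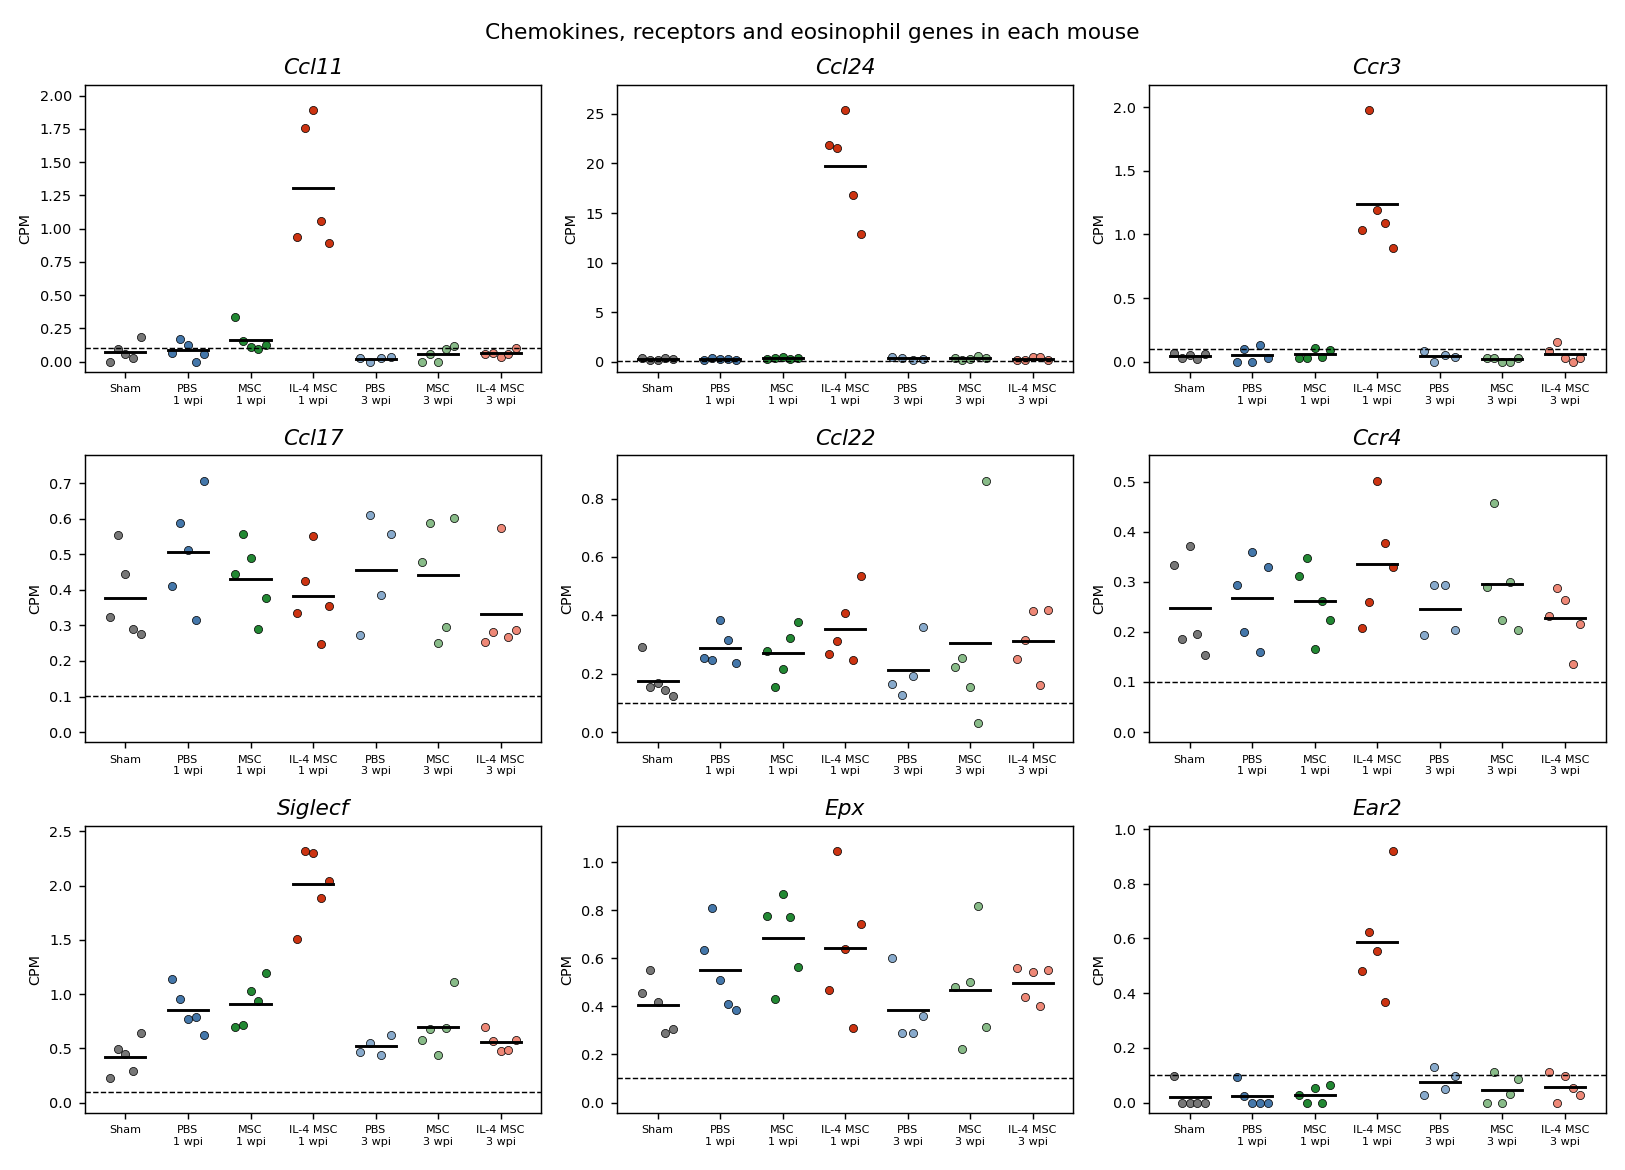
CPM of each of the 9 genes (vertical axes, linear and scaled per gene) in each mouse of the 7 groups (horizontal axes). Points are mice, bars are group means, and the dashed line is the highest CPM that 3 counts equal, 0.101. Ccl24, Ccl11, Ccr3, Siglecf and Ear2 stand above all other groups in IL-4 MSCs at 1 wpi, and the other 4 genes overlap between groups.

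At 1 wpi, IL-4 MSCs differed from Sham, PBS and MSCs alike in 5 of the 9 genes, each of which was higher. They were both eotaxins, their receptor Ccr3, and the eosinophil genes Siglecf and Ear2. The Ccr4 ligands Ccl17 and Ccl22, Ccr4 itself, and Epx were not called in any of these comparisons. Among all tested genes, 18.4% were called higher against Sham, 11.2% against PBS and 7.66% against MSCs. In all 3 comparisons the mice of the groups did not overlap for the 5 genes, which held for 20.6%, 11.5% and 8.61% of all tested genes. The median log2FC of the 9 was 2.19, 1.20 and 1.12, and that of all tested genes was -0.018, -0.0042 and -0.0081. The 3 comparisons share the IL-4 MSC mice and are not independent of each other. In bulk tissue, more cells of a type and more RNA per cell cannot be told apart.

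Ccl24, the eotaxin that macrophages are known to make in response to IL-4, had the largest difference of the 9. Its 5 IL-4 MSC mice at 1 wpi held 653, 763, 873, 542 and 435 counts, or 19.7 ± 4.88 CPM (SD, n = 5). The PBS mice held 6, 13, 7, 8 and 5 counts, and the MSC mice held 8, 12, 18, 9 and 10. Sham mice held 11, 4, 6, 16 and 7 counts. Every IL-4 MSC mouse was thus far above every other mouse of the study, in which Ccl24 reached at most 19 counts. The log2FC was 6.19 (SE 0.31, adjusted p = 1.06e-16) against Sham, 6.37 (SE 0.33, adjusted p = 2.04e-16) against PBS, and 5.82 (SE 0.29, adjusted p = 6.17e-16) against MSCs. MSCs and PBS did not differ detectably, at 0.54 (95% interval -0.26 to 1.34).

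Ccl24 (chr5:135569937-135573049, minus strand) has 2 protein-coding transcripts, of 561 and 1295 bases. The authors' TPM values, levels that sum to the same total in every library, divide by transcript length, so the ratio of TPM to CPM depends on which transcript the counts were assigned to. This ratio was 4.07 to 4.24 in the 5 IL-4 MSC mice at 1 wpi. In the other 29 mice it was 1.82 to 3.36 with a median of 1.86, and 21 of them were under 1.9. A higher ratio goes with assignment to the shorter transcript. On the TPM scale the mean was 82.3 ± 20.3 (SD, n = 5) in that group and 0.465 ± 0.0835 in PBS. The gene-level log2FC above is on the count scale and does not include this shift.

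Ccl11, the eotaxin made mostly by fibroblasts, epithelium and endothelium, was near the detection level elsewhere and clearly counted in IL-4 MSC mice. These held 28, 62, 65, 34 and 30 counts, or 1.31 ± 0.478 CPM. PBS mice held 2, 7, 4, 0 and 2 counts, Sham mice 0, 3, 2, 1 and 6, and MSC mice 12, 5, 4, 3 and 4. MSC mouse 1, with 12 counts, was the highest of the 29 other mice and still below the lowest IL-4 MSC mouse. The log2FC was 4.09 (SE 0.57, adjusted p = 1.92e-08) against Sham, 3.81 (SE 0.53, adjusted p = 1.65e-07) against PBS and 2.93 (SE 0.44, adjusted p = 4.11e-06) against MSCs. MSCs against PBS gave 0.88 (95% interval -0.37 to 2.12), which was not called. Ccl11 lies at chr11:82057823-82062955 on the plus strand.

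Ccr3, the receptor of both eotaxins, is found mainly on eosinophils and also on basophils and some Th2 cells. IL-4 MSC mice held 31, 70, 41, 35.1 and 30 counts, or 1.24 ± 0.428 CPM. Fractions of a count are kallisto's estimates where a read fits several transcripts. No other mouse had more than 5 counts. Mouse 2 of the IL-4 MSC group stood above its group mates, at 1.98 CPM beside 0.890 to 1.19. Without this mouse the 5 calls at 1 wpi were kept. The log2FC was 4.57 (SE 0.62, adjusted p = 2.27e-09) against Sham, 4.42 (SE 0.60, adjusted p = 1.58e-08) against PBS and 4.28 (SE 0.57, adjusted p = 3.40e-08) against MSCs. Ccr3 lies at chr9:124021972-124031689 on the plus strand.

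Ccl17 and Ccl22, the ligands of Ccr4, sit near each other on chromosome 8 (chr8:94810453-94812036 and chr8:94745590-94751699). For Ccl17 the IL-4 MSC mice at 1 wpi held 10, 15, 19, 8 and 12 counts, and PBS mice held 13, 24, 16, 10 and 24. Over all 34 mice Ccl17 held 8 to 24 counts, and every group overlapped every other. Its log2FC in IL-4 MSCs was -0.44 (95% interval -1.03 to 0.16) against PBS and -0.19 (-0.80 to 0.42) against MSCs. A rise of more than 0.42 against MSCs or 0.16 against PBS thus lies outside the interval.

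For Ccl22 the IL-4 MSC mice at 1 wpi held 8, 11, 14, 8 and 18 counts, PBS mice 8, 10, 12, 10 and 8, and Sham mice 9, 5, 6, 6 and 4. These groups overlapped. The log2FC was 0.94 (adjusted p = 0.102) against Sham, 0.28 (95% interval -0.59 to 1.14) against PBS and 0.38 (-0.50 to 1.25) against MSCs. Differences within these intervals were not detectable at this depth. The largest value was in MSC mouse 5 at 3 wpi, with 30 counts beside 1 to 9 in its group mates.

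Ccr4 (chr9:114490316-114504916, minus strand) held 6.18, 9.20, 17.3, 12.1 and 11.1 counts in IL-4 MSC mice at 1 wpi and 5.05 to 16.3 in the other mice. The log2FC was 0.37 (95% interval -0.23 to 0.97) against Sham, 0.30 (-0.29 to 0.90) against PBS and 0.34 (-0.26 to 0.94) against MSCs. The upper bounds are far below the differences of Ccr3.

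**Figure D2:**
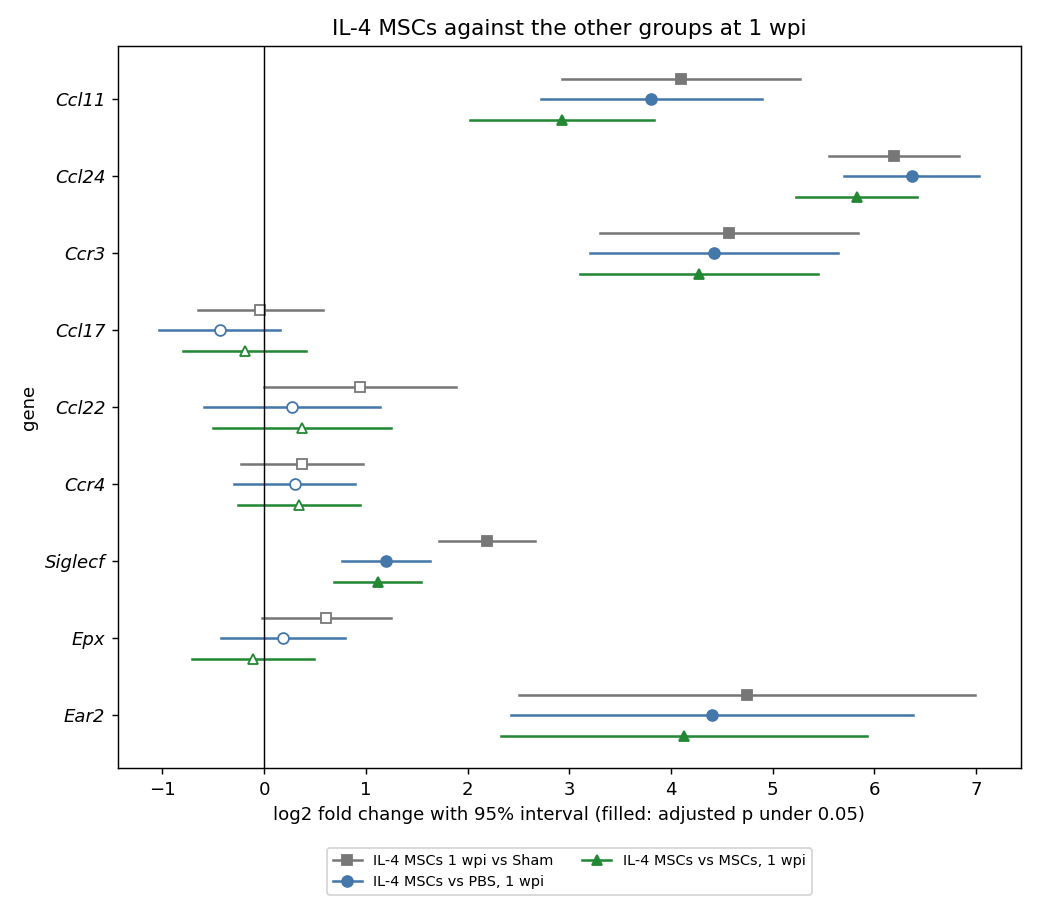
Log2 fold change of each gene (rows) in IL-4 MSCs at 1 wpi against Sham (squares), PBS (circles) and MSCs (triangles), with 95% intervals. Filled symbols have an adjusted p under 0.05. Ccl24, Ccl11, Ccr3, Siglecf and Ear2 lie to the right of 0 in all 3 comparisons, and the intervals of Ccl17, Ccr4 and Epx include 0.

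Siglecf, an inhibitory sialic acid receptor of eosinophils and some macrophages, was the 1 member that was also called in injured mice without IL-4. Sham mice held 7, 16, 16, 12 and 21 counts, or 0.419 ± 0.165 CPM. PBS mice at 1 wpi held 36, 39, 24, 25 and 21 (0.855 ± 0.200 CPM) and MSC mice 25, 23, 38, 29 and 38 (0.912 ± 0.212 CPM). IL-4 MSC mice held 45, 82, 79, 60.9 and 69, or 2.01 ± 0.334 CPM. The levels therefore stood in the order Sham, PBS, MSCs, IL-4 MSCs, with PBS and MSCs within each other's spread. Against Sham the log2FC was 0.99 (SE 0.24, adjusted p = 0.00418) in PBS, where the mice overlapped in CPM, and 1.08 (SE 0.24, adjusted p = 0.00141) in MSCs, where they did not. It was the 1 member called in either comparison. Called higher against Sham were 8.73% of all tested genes in PBS and 11.0% in MSCs, and MSC mice were all above Sham in 11.3% of genes. In IL-4 MSCs it was 2.19 (SE 0.23, adjusted p = 2.40e-09) against Sham, 1.20 (SE 0.21, adjusted p = 8.20e-05) against PBS and 1.12 (SE 0.21, adjusted p = 0.000277) against MSCs. Siglecf lies at chr7:43351341-43359531 on the plus strand.

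Epx encodes eosinophil peroxidase, a defining granule enzyme of eosinophils. It was counted in every mouse of the study, Sham included. The IL-4 MSC mice at 1 wpi held 14, 37, 22, 10 and 25 counts, MSC mice 28, 14, 32, 24 and 18, PBS mice 20, 33, 16, 13 and 13, and Sham mice 14, 18, 15, 12 and 10. All these groups overlapped, and MSCs had the highest mean, 0.683 ± 0.179 CPM beside 0.641 ± 0.280 in IL-4 MSCs. The log2FC in IL-4 MSCs was 0.61 (adjusted p = 0.123) against Sham, 0.19 (95% interval -0.42 to 0.80) against PBS and -0.11 (-0.71 to 0.49) against MSCs. Epx lies at chr11:87864000-87875536 on the minus strand.

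Ear2 encodes an eosinophil-associated ribonuclease that macrophages can also make. IL-4 MSC mice at 1 wpi held 14.3, 22, 19, 11.8 and 31 counts, or 0.588 ± 0.208 CPM. Outside this group no mouse had more than 4 counts. Sham held 3 counts in all, each of them in mouse 1, so the ratio to Sham is given from the summed counts. It was 34.2 with a 95% counting interval of 11.4 to 169, which leaves out the spread between mice. The edgeR test against Sham gave a log2FC of 4.75 (adjusted p = 1.72e-06). The log2FC was 4.40 (SE 0.97, adjusted p = 8.83e-06) against PBS and 4.13 (SE 0.88, adjusted p = 1.87e-05) against MSCs, which held 4 and 5 counts in all. Ear2 lies at chr14:44102654-44103534 on the plus strand. The lincRNA Gm49101 overlaps it on the other strand, and no source used here says whether strand was recorded.

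Levels can be compared between genes per length, on the TPM scale. In IL-4 MSCs at 1 wpi, mean TPM was 82.3 for Ccl24, 2.93 for Ccl11, 2.41 for Ccl17 and 2.26 for Ear2. It was 1.69 for Siglecf, 0.793 for Ccr3, 0.508 for Epx, 0.347 for Ccl22 and 0.254 for Ccr4. In Sham, Ccl17 had the highest mean TPM of the 9, 2.46, and Ccl24 followed with 0.555. Ccl24 thus passed Ccl17 in IL-4 MSCs, whereas Ccl17 itself had nearly the same TPM in both groups.

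The differences were no longer seen at 3 wpi. In IL-4 MSCs, 0 of the 9 genes were called against PBS, MSCs or Sham by edgeR, 0 by DESeq2, and 0 at an unadjusted p under 0.05. Called in either direction at that time were 2.94% of all tested genes against PBS, 3.47% against MSCs and 4.27% against Sham. In PBS and MSCs against Sham at 3 wpi, edgeR and DESeq2 also called 0 of 9, beside 0.0292% and 1.15% of all tested genes. At an unadjusted p under 0.05, PBS had 0 and MSCs had 1, Siglecf, with a log2FC of 0.73 (adjusted p = 0.174). Both weeks of MSCs against PBS gave 0 calls by both tools and 0 at an unadjusted p under 0.05, where 0.123% of all genes were called at 1 wpi and 0.0817% at 3 wpi.

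Within IL-4 MSCs, the same 5 genes were lower at 3 wpi than at 1 wpi, where 16.6% of all tested genes were called lower. Ccl24 held 7, 4, 13, 19 and 8 counts at 3 wpi, a log2FC of -6.00 (SE 0.30, adjusted p = 2.05e-16). Ccl11 held 2, 2, 1, 2 and 4 counts (log2FC -4.24, adjusted p = 1.83e-08) and Ccr3 held 3, 5, 1, 0 and 1 (-4.28, adjusted p = 5.85e-09). Ear2 held 4, 0, 3, 2 and 1 counts (log2FC -3.22, adjusted p = 3.79e-05). Siglecf held 25, 18, 15, 18 and 22 counts (log2FC -1.78, adjusted p = 1.00e-07), a level that overlapped Sham. In PBS and in MSCs, edgeR and DESeq2 called 0 of 9 between the weeks, beside 5.51% and 6.15% of all tested genes, with 1 gene each at an unadjusted p under 0.05. These were Siglecf in PBS (-0.71, adjusted p = 0.0995) and Ccl11 in MSCs (-1.51, adjusted p = 0.192).

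**Figure D3:**
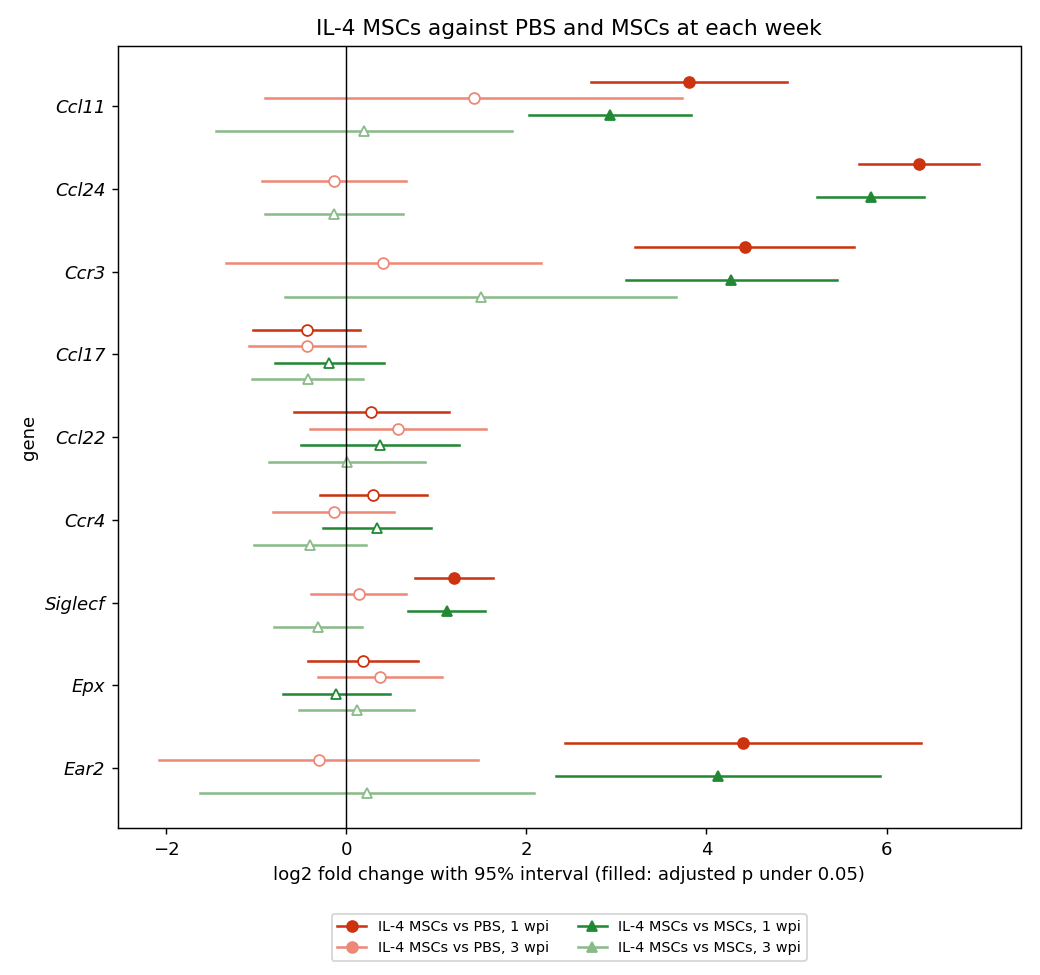
Log2 fold change of each gene (rows) in IL-4 MSCs against PBS (red circles) and MSCs (green triangles) at 1 wpi (dark) and 3 wpi (light), with 95% intervals. Filled symbols have an adjusted p under 0.05. The 5 genes called at 1 wpi have no filled symbol at 3 wpi, and the intervals of Ccl11, Ccr3 and Ear2 at 3 wpi are wide because few counts stand behind them.

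Whether a treatment difference changed between the weeks was tested directly, as the log2FC at 1 wpi minus that at 3 wpi. Against PBS, 3 of the 9 genes were called, beside 3.93% of all tested genes called in that direction. They were Ccl24 at 6.50 (SE 0.51, adjusted p = 9.32e-10), Ear2 at 4.71 (SE 1.30, adjusted p = 0.0139) and Ccr3 at 4.02 (SE 1.04, adjusted p = 0.0275). Against MSCs, 3 were called beside 5.96% of all tested genes. They were Ccl24 at 5.96 (SE 0.47, adjusted p = 8.30e-10), Siglecf at 1.43 (SE 0.32, adjusted p = 0.00336) and Ear2 at 3.89 (SE 1.27, adjusted p = 0.0404). For Ccl11 the test did not pass, at 2.39 (SE 1.26, adjusted p = 0.418) against PBS and 2.73 (SE 0.92, adjusted p = 0.0732) against MSCs. PBS mice at 3 wpi held 3 counts of Ccl11 in all and MSC mice 9. The Ear2 and Ccr3 tests rest on similarly low counts at 3 wpi and did not hold without single mice, as given below. For MSCs against PBS, edgeR and DESeq2 called 0 of 9, beside 0% of all tested genes, with 0 at an unadjusted p under 0.05.

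Other genes of type 2 immunity were counted from fixed lists, in IL-4 MSCs against PBS at 1 wpi, where the median log2FC of all genes was -0.0042. Of all tested genes, 11.2% were called higher there. Of 5 further chemokines listed for Ccr3 or Ccr4, 4 were tested and 3 were higher, with a median of 3.83. Ccl8 had a log2FC of 7.63 (adjusted p = 1.21e-14), with 929 to 1405 counts in IL-4 MSC mice and at most 14 in PBS and MSC mice at 1 wpi. Mouse Ccl8 is better known as a ligand of Ccr8, a receptor of Th2 cells. Ccl7, which also binds Ccr2 on monocytes, had 4.74 (adjusted p = 1.73e-11), and Ccl5, which draws T cells and monocytes, had 2.91 (adjusted p = 2.21e-07).

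Type 2 cytokines and their receptors had 10 of 13 tested genes higher and 0 lower, with a median of 0.78. Named by the largest changes were Il13ra2 (log2FC 2.49), a decoy receptor of IL-13, Il2rg (1.96), the chain common to several cytokine receptors, and Il4ra (1.62), the IL-4 receptor chain. Of the cytokines themselves, Il4, Il5 and Il13 had low counts, whereas Il33 held 1349 to 2528 counts over all libraries. In IL-4 MSC mice at 1 wpi Il4 had 4 to 12 counts, Il5 had 4 to 7 and Il13 had 0 to 3. Il4 held 2 to 6 counts in PBS and 4 to 9 in MSCs. Whether the synthetic mRNA would be counted as Il4 is not given in the sources used here, so these counts do not check the transfection. The list of IL-4 induced macrophage genes, compiled with earlier results of these data known, was higher in 12 of 12 with a median of 3.62. It was led by Chil3 (7.74), Retnla (7.42) and Arg1 (5.94), where 11.2% of all tested genes were called higher. Retnla held 3 counts or fewer in 23 of 34 libraries, Alox15 in 21, Pdcd1lg2 in 18 and Chil3 in 12. Where the filter was passed through IL-4 MSC mice of week 1, as for Alox15 below, being tested and being higher are not separate facts. Alox15 is counted again below among eosinophil markers.

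The label of eosinophil genes was checked against 10 further eosinophil markers, of which 2, Alox15 and Il5ra, were tested. Alox15, a lipoxygenase that IL-4-treated macrophages also make, had 38 to 81 counts in IL-4 MSC mice at 1 wpi and at most 6 in any other group (log2FC 4.07, adjusted p = 1.92e-09). Since it passed the filter on low counts through these mice alone, being tested and being higher are not separate facts for it either. Il5ra, the eosinophil IL-5 receptor chain, differed by 0.49 (adjusted p = 0.0274) against PBS. It was not called against Sham or MSCs, and Sham mice held 52.1 to 63.9 counts. The 2 calls against PBS fell to 1 without PBS mouse 2, 4 or 5, without IL-4 MSC mouse 3 or 4, with the 2 groups alone and with the striatal score as a covariate. The other 8 were too low to be tested. Prg2, the major basic protein of the granule and a defining marker, held 1 to 4 counts in IL-4 MSC mice at 1 wpi and 0 to 3 in the others. Ear1, Ear6, Ear10, Ear14 and Prg3 had at most 2 counts in any mouse. Ear1 and Ear10 share many 31-base words with Ear2, so their low counts are not separate from the counts assigned to Ear2.

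The transcription factors Cebpe and Gata1, both needed for eosinophil development, are named after their values were seen. Cebpe held 12, 9, 10, 12 and 8 counts in IL-4 MSC mice at 1 wpi and at most 5 in any other mouse. Gata1 held 2, 7, 4, 3 and 4 there and at most 3 elsewhere. With no filter on low counts, edgeR called 4 of the 10 markers higher against PBS, in a fit of 21004 genes. The share of all genes called in that fit is not reported here. Against PBS the 4 were Alox15, Il5ra, Cebpe at 2.79 (adjusted p = 0.00143) and Gata1 at 2.97 (adjusted p = 0.00924). Against Sham and against MSCs it called 3 of the 10, Alox15, Cebpe and Gata1. Cebpe was at 4.99 (adjusted p = 1.32e-05) against Sham and 2.59 (adjusted p = 0.00348) against MSCs. Of the defining granule genes, Epx was not called against PBS, nor was Prg2 with no filter on low counts. Sham mice held 10 to 18 counts of Epx but 0 to 3 of Prg2. Whether Epx followed eosinophils in this tissue was not tested. Ccr3, Siglecf, Ear2, Alox15 and Il5ra were called against PBS, as were Cebpe and Gata1 with no filter on low counts. The data do not settle how many eosinophils the tissue held. The genes are called eosinophil genes here by the name of the set only.

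**Figure D4:**
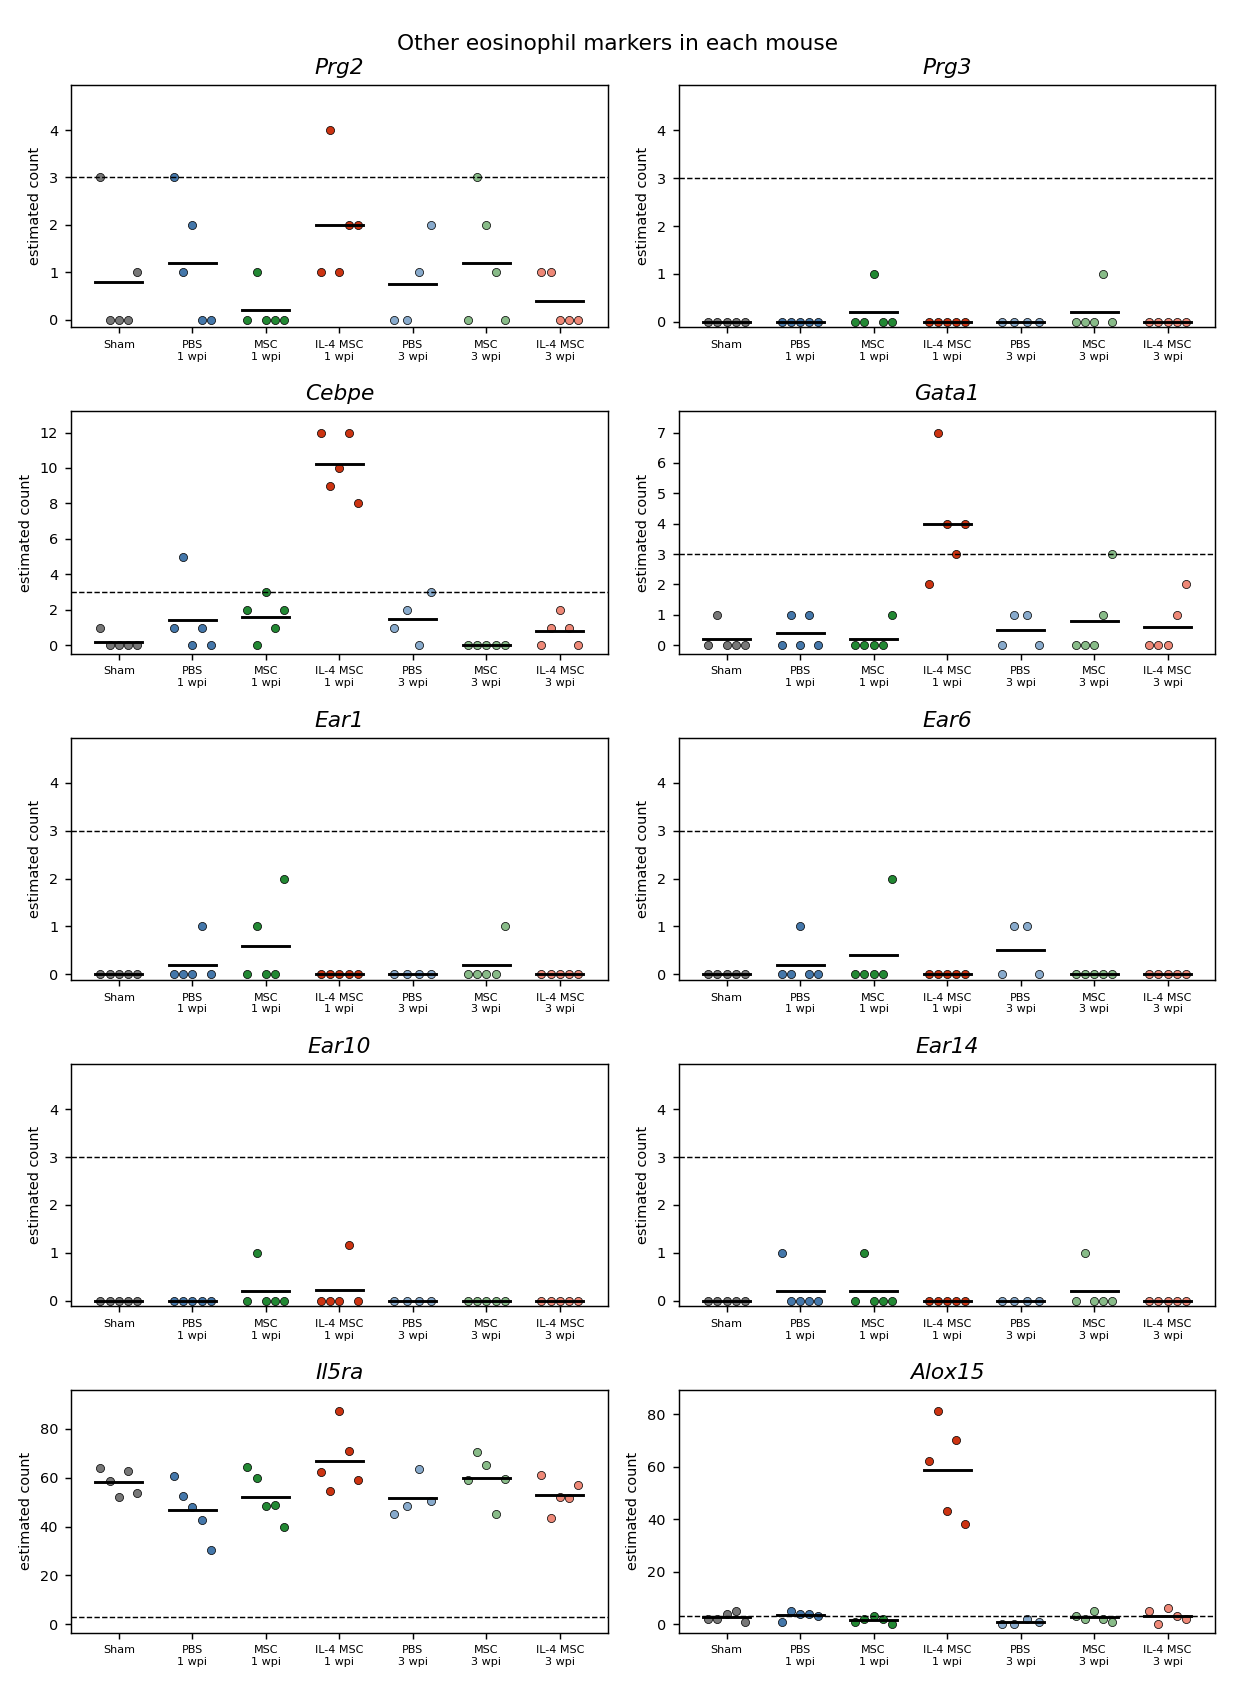
Estimated counts (vertical axes, linear) of the 10 further eosinophil markers in each mouse of the 7 groups. Points are mice, bars are means, and the dashed line marks 3 counts. Alox15, Cebpe and Gata1 are highest in IL-4 MSCs at 1 wpi, Il5ra is at 30.5 or more counts in every group, and the granule genes Prg2 and Prg3 are at 4 counts or fewer.

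Markers of other cell types were counted in the same comparison, and their part in the results was not tested. The share of all tested genes called higher was 11.2%, as above. Monocyte and macrophage markers had 9 of 10 higher with a median of 1.63, led by Ly6c2 (log2FC 3.85), Ms4a7 (3.13) and Plac8 (3.04). Dendritic cell markers had 4 of 10 higher with a median of 0.94, led by Cd209a (2.62), Clec10a (2.12) and Batf3 (1.42). The defining marker Flt3 was not called in the edgeR fit with no filter on low counts (0.053, adjusted p = 0.806). Nor were Zbtb46 (-0.087), Xcr1 (0.055) and Clec9a (0.36) in that fit. Flt3 and these genes had also passed the filter and were among the 10 tested above. T cell markers had 2 of 9 higher with a median of 0.72, Cd4 (1.86) and Cd28 (1.14). In the edgeR fit with no filter on low counts, Cd3e (1.06, adjusted p = 0.0845), Cd3d (0.066) and Trac (0.074) were not called. Cd3e, Cd3d and Trac had also passed the filter. The summed level of the list was 9.47 to 14.1 CPM in IL-4 MSCs and 6.25 to 8.46 in PBS. It overlapped in MSCs (5.62 to 10.8) and Sham (5.05 to 9.65), and reached 11.1 to 25.1 in IL-4 MSCs at 3 wpi. Cd4, which is part of this sum, ranged from 20 to 711 counts over all libraries. Cd3d, the next highest of the list, reached 111, and Cd3e reached 35. IL-4 MSC mice at 3 wpi also had the highest median striatal sum of the groups, 2069 CPM. Whether the summed level followed T cells was not tested. The T cell count was 1 to 3 without single mice (PBS mouse 2, 3 or 5, or IL-4 MSC mouse 2 or 3) and 5 with the striatal covariate. Fibroblast and meningeal markers had 3 of 10 higher with a median of 0.27, the collagens Col3a1 (2.27), Col1a1 (1.21) and Col1a2 (1.20). The same 3 collagens were called higher with unmodified MSCs against PBS at 1 wpi. Against MSCs, IL-4 MSCs had 0 of these 10 markers called, with a median of 0.012 and 1 at an unadjusted p under 0.05. At 1 wpi the median summed level of the list was 480 CPM for IL-4 MSC mice, 478 for MSC mice and 252 for PBS mice.

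Th2 and regulatory T cell markers had 0 of 4 tested genes called, by edgeR, by DESeq2 and at an unadjusted p under 0.05, and the same held for the 3 tested mast cell and basophil markers. Mcpt8, a basophil protease, had at most 2 counts in any mouse, and Cpa3 of mast cells had 2 to 7 counts in IL-4 MSC mice. Choroid plexus markers had 0 of 8 called by either tool and 0 at an unadjusted p under 0.05. For cortical and hippocampal neuron markers, 0 of 8 were called by either tool, with 2 of each list at an unadjusted p under 0.05. With the 2 groups alone, edgeR called 2 cortical and 6 hippocampal markers, counted in either direction. Striatal neuron markers had 0 of 13 called by edgeR, 1 by DESeq2 and 8 at an unadjusted p under 0.05, with a median of 0.92. With the 2 groups alone, 11 were called. The share of all genes called with the 2 groups alone is not reported here.

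Markers of regions other than the labelled cortex were counted in the tissue, and their level varied between mice. Striatal markers summed to 642 to 1206 CPM in IL-4 MSCs at 1 wpi, 494 to 638 in PBS and 420 to 1227 in MSCs. At 3 wpi IL-4 MSC mice held 592 to 3322 CPM, and 13 of 13 striatal markers were higher than in PBS. In that comparison 2.94% of all tested genes were called in either direction. With the striatal score as a covariate, an alternative chosen after seeing the data, the 5 genes were still called at 1 wpi.

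**Figure D5:**
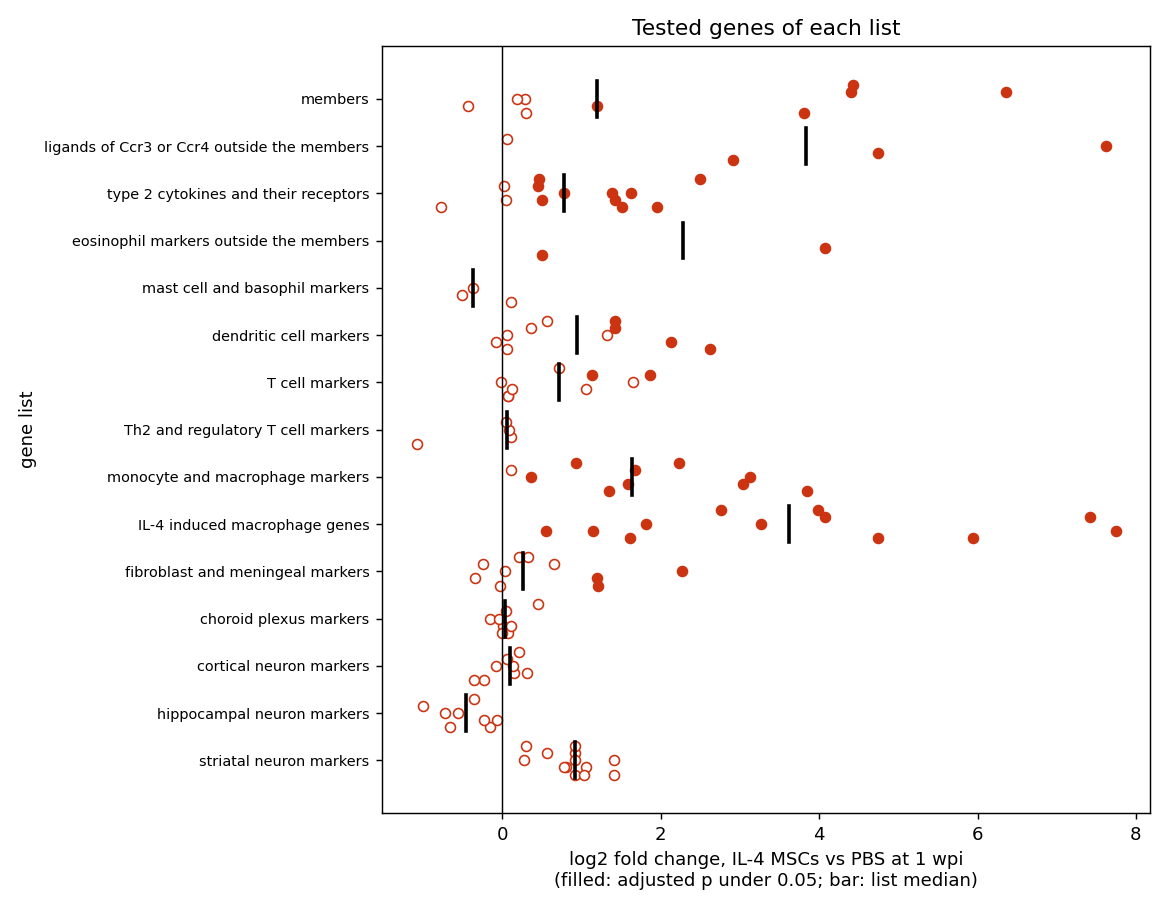
Log2 fold change in IL-4 MSCs against PBS at 1 wpi (horizontal axis) of the tested genes of each list (rows), with the 9 genes in the top row, named members. Filled points have an adjusted p under 0.05 and black bars are list medians. The IL-4 induced macrophage genes are all filled, and the lists of Th2 and regulatory T cells, mast cells and basophils, and neurons have no filled point.

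The genes most alike to each member over the 34 libraries were found by Pearson's r of log2 CPM, as a description. The points share the group structure, since all libraries of a group moved together. For Ccl24 they were Msx3 (0.96), Cbr2 (0.96) and Mrc1 (0.95), the last of them a mannose receptor of IL-4-treated macrophages. For Ccr3 they were Retnla (0.93), Chil3 (0.92) and Anpep (0.92), and for Ccl11 Pecam1 (0.93), Bach1 (0.92) and Ms4a8a (0.92). Siglecf was most like Ctss (0.93), Il10ra (0.93) and Arhgap45 (0.93), genes that microglia and macrophages express. Ear2 was most like Mgl2 (0.90), Rnase2a (0.85) and H2-T22 (0.85). For the members that were not called, the highest r was lower, 0.54 for Ccl17 (Dgka), 0.65 for Ccl22 (Gimap5), 0.58 for Ccr4 (Usp16) and 0.66 for Epx (Slc35a4).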

How the data were processed

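The authors trimmed 50-base paired reads with cutadapt 2.4, checked them with FastQC 0.11.8 and assigned them with kallisto 0.46 to protein-coding GENCODE vM23 transcripts. The deposited table holds estimated counts summed per gene, without normalization, and TPM, which the authors' software scaled for transcript length and library. Columns of the authors' own comparisons (fold changes, p-values and q-values) were not used.

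Estimated counts were rounded and tested with edgeR 4.0.16 in R 4.3.3 (TMM, filterByExpr by group, about 0.306 CPM, quasi-likelihood test, two-sided) in 1 fit of 34 libraries, with 15 comparisons and 3 differences between weeks. Benjamini-Hochberg adjustment ran over 17131 genes. The 66 pairs of mice of a group differed by more than sampling noise, with a chi-square per gene of 3.20 to 50.1. Alternatives included DESeq2 1.42.0, other scalings, no filter, the 2 groups alone, a replicate block and leaving out each mouse. Log2 CPM for likeness used a prior count of 2. Scripts were tested on simulated data.

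The members and lists were chosen with earlier results of these data known. All 9 members are named, and from each list at most the 3 genes called with the largest change in IL-4 MSCs against PBS at 1 wpi, beside defining markers such as Prg2, Mcpt8, Cpa3, Il4, Il5 and Il13. The other eosinophil markers were named outside this rule, after their values were seen, as were Il33, Pdcd1lg2, Zbtb46, Xcr1, Clec9a, Cd3d and Trac. Coding sequences and positions are from GENCODE vM21 (GRCm38).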

Additional observations from a re-analysis of the deposited data

Results flagged for a closer look

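In 7 of 63 sets of 4 or 5 mice (each of the 9 genes in each of 7 groups), the highest mouse stood apart from its group by Dixon's test. For normally distributed values chance gives about 1 in 20. Several of these sets are small counts with ties, so 7 of 63 cannot be set against that rate. For Ccl11 it was MSC mouse 1 at 1 wpi, with 0.333 CPM (12 counts). For Ccl17 it was IL-4 MSC mouse 3 at 3 wpi, with 0.575 CPM (18 counts). For Ccl22 these were Sham mouse 1, with 0.292 CPM (9 counts), and MSC mouse 5 at 3 wpi, with 0.862 CPM (30 counts). For Ccr3 it was IL-4 MSC mouse 2 at 1 wpi, with 1.98 CPM (70 counts). For Ear2 these were Sham mouse 1 with 0.0975 CPM and PBS mouse 1 at 1 wpi with 0.0950 CPM, both at 3 counts.

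A treatment difference that changed between 1 and 3 wpi was called for 4 genes. Against PBS the log2 difference of IL-4 MSCs was larger at 1 wpi by 6.50 for Ccl24, 4.02 for Ccr3 and 4.71 for Ear2. Against MSCs it was larger by 5.96 for Ccl24, 1.43 for Siglecf and 3.89 for Ear2. All come from 5 mice a group, or 4 for PBS at 3 wpi, and rest for Ccr3 and Ear2 on 10 counts or fewer a group at 3 wpi.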

How the results depend on the processing

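The 22 called differences of members between groups kept their direction and an adjusted p under 0.05 in all 381 fits of other settings run on them. A threshold of a log2FC of at least 1 is not among these, and it drops Siglecf in PBS against Sham (0.99). The replicate numbers did not pair the mice (correlations of deviations -0.462 to 0.400, every pair over 0.1 in 0 of 15 comparisons). With the replicate block no member's call changed except the week difference of Ear2 against MSCs, 3.86 (adjusted p = 0.0536). With the striatal covariate, chosen after seeing the data, it was 3.89 (adjusted p = 0.0760), and without single mice it was lost in 9 of 20 fits (adjusted p up to 0.188). The Ccr3 week difference against PBS was lost without PBS mouse 1 or 3 at 3 wpi (adjusted p up to 0.191), and that of Ear2 without PBS mouse 2 at 3 wpi (adjusted p = 0.0548). Epx against Sham was called without IL-4 MSC mouse 4 at 1 wpi (0.80, adjusted p = 0.0415). Differences near 0 changed sign: Ccl17 against Sham was 0.034 with library size alone and 0.0011 with sham mice of week 1, and without single mice it ran from -0.19 to 0.14, Epx against PBS from -0.046 to 0.39 and Epx against MSCs from -0.35 to 0.078. The cause of these changes was not tested.

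With a log2FC of at least 1, PBS against Sham at 1 wpi had 0 members, and type 2 genes had 6 and eosinophil markers 1. The alternatives of the lists were chosen after seeing the data. Eosinophil markers had 4 with no filter, 1 with the 2 groups alone and 1 with the striatal covariate, under which T cell markers had 5. With the 2 groups alone, mast cell and basophil markers had 1, cortical 2, hippocampal 6 and striatal neuron markers 11, and with DESeq2 striatal markers had 1. These counts cover both directions. Leaving out a mouse gave 1 to 2 eosinophil, 1 to 3 T cell, 0 to 1 cortical and 0 to 1 striatal markers. At a floor of 10 counts, 6 members were near detection in Sham, in PBS of both weeks and in MSCs at 1 wpi, 5 in MSCs at 3 wpi and 7 in IL-4 MSCs at 3 wpi, where a floor of 3 counts gave 2 in MSCs at 1 wpi and 3 in the others. Over the table, a log2FC of at least 1 left 491 of 2974 genes against PBS at 1 wpi. Without IL-4 MSC mouse 2 at 3 wpi, the genes with a week difference rose from 808 to 1292 against PBS and from 1346 to 2047 against MSCs. Outside IL-4 MSCs at 1 wpi, the depth left the group median of Ccr3, Ear2 and, except in MSCs at 1 wpi, Ccl11 at or under 3 counts.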
